A study of Homo sapiens with 12 samples.

Results

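The apolipoproteins are the protein parts of the lipoprotein particles that the liver sends into the blood. Here 10 genes were followed, namely APOA1, APOA2, APOA4, APOB, APOC1, APOC3, APOE, APOH, APOM and MTTP, chosen by their symbols in the table of 63677 genes. Of the table's rows, 16 carry one of these symbols, and the 6 further rows named APOM had 0 counts in all 12 samples. All 10 genes were among the 17092 tested, which reached 10 counts in 3 or more samples. The cells were Huh7, a human hepatocellular carcinoma line, in 4 groups of 3 samples. One group was left untreated, and the others received, for 6 h, 400 µg/mL of graphene oxide (GO), 400 µg/mL of GO carrying the ginsenoside Rg3 (GO–Rg3), or 100 µg/mL of that material with doxorubicin added (GO–Rg3–DOX). Rg3 is a triterpenoid saponin of ginseng, and doxorubicin (DOX) is an anthracycline that binds DNA and blocks topoisomerase II. Because GO–Rg3–DOX was given at another dose than the other 2 materials, and a group given DOX alone was not used here, its values are set only against untreated cells, and DOX, carrier and dose cannot be told apart in them. The cells are 1 tumour line, which models hepatocytes only in part.

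Hepatocytes build very-low-density lipoprotein around APOB, a very large protein that is loaded with triglyceride in the endoplasmic reticulum by the microsomal triglyceride transfer protein encoded by MTTP. High-density lipoprotein forms around APOA1 and also carries APOA2, APOA4 and APOM. APOC1, APOC3 and APOE move between particle classes, where APOC3 slows the clearance of triglyceride-rich particles and APOE is the ligand for their uptake through receptors on the cell surface. APOH, or beta-2-glycoprotein I, binds anionic phospholipids in plasma. In liver, many of these genes are driven by HNF4A and the FOXA factors, and their mRNAs are markers of the hepatocyte.

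Promoters are shown for APOA4, APOE and APOH because these 3 members moved with GO–Rg3–DOX and differ in base composition. Each run covers 250 bases before to 50 bases after a start site of RefSeq on GRCh38.p14. Of the 10 genes, 7 had an entry there. APOA4 lies on the minus strand (chr11:116823255-116823554), APOE on the plus strand (chr19:44905546-44905845) and APOH on the minus strand (chr17:66229366-66229665). Capitals mark the matches to the 4 motifs searched on both strands.
APOA4: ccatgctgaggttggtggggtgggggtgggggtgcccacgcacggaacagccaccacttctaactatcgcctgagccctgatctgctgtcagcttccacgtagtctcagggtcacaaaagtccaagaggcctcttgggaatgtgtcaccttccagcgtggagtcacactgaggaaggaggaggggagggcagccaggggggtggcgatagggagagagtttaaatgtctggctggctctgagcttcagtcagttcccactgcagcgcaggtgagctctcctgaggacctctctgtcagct
APOE: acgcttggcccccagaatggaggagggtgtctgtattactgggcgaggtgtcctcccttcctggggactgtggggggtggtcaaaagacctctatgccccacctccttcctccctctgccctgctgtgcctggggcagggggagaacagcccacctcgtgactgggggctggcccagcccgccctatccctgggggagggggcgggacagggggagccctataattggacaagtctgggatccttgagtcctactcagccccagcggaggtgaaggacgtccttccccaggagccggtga
APOH: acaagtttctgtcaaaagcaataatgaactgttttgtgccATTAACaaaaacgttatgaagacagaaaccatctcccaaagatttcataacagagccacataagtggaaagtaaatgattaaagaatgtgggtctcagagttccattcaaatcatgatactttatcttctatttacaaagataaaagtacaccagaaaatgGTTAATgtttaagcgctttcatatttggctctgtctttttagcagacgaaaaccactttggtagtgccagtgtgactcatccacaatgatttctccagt
The letters searched, exact matches only, were CAAAGTCCA and CAAAGGTCA (short sequences of the kind bound by HNF4A), GTTAAT, and TATAAA, the TATA box. They occurred in 0.384%, 0.407%, 6.88% and 11.5% of 35116 promoters of this length. The APOH promoter held GTTAAT at positions -210 (minus strand) and -49 (plus strand) from the start, and none of the 4 was found in the runs shown for APOA4 and APOE. G and C made up 59.3% of the bases for APOA4, 65.0% for APOE and 35% for APOH.

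On GRCh37, the build of the counts, 3 members lie within 16923 bases of chromosome 11: APOA4 (116691416 to 116694020, minus strand), APOC3 (116700422 to 116703788, plus strand) and APOA1 (116706467 to 116708338, minus strand). A further pair lies within 13559 bases of chromosome 19, APOE (45409048 to 45412650) and APOC1 (45417504 to 45422606), both on the plus strand. APOA2 is on chromosome 1 (161192082 to 161193421, minus strand), APOB on chromosome 2 (21224301 to 21266945, minus strand), MTTP on chromosome 4 (100485238 to 100545154, plus strand), APOM on chromosome 6 (31620193 to 31625987, plus strand) and APOH on chromosome 17 (64208151 to 64252643, minus strand). Exons of 8 members overlap an exon of another annotated gene, and only APOC3 and APOH have no such overlap. Whether the counting used the strand is not given in the sources used here. Counts of members with a partner on the opposite strand are uncertain to that extent. APOC1 (479 bases) and APOE (19 bases) instead overlap an unnamed gene on the same strand, which strand-aware counting would not resolve. Whether that gene was in the annotation used for the counts is not given either. The partner of APOM is BAG6, with 136 shared bases and a mean of 249.9 CPM in untreated cells. The partner of APOA1, APOA1-AS, had 13 counts in the 12 samples together. APOC1 also has a neighbouring pseudogene copy, APOC1P1, with which the counting could split its reads.

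Sequencing depth was 27802871 to 38877420 counts per sample. Levels are counts scaled to library size (CPM) by edgeR's TMM method, and a gene passed the test at an adjusted p below 0.01 by edgeR's quasi-likelihood test over all genes. Replicates are not said to be separate cultures, so p-values measure the spread between these samples, which may be technical. In such bulk samples, fewer cells and less RNA per cell cannot be told apart. The 9 hepatocyte and hepatoma markers were all detected, with a summed level of 22179 to 22617 CPM in untreated cells, 13302.5 to 15811 after GO, 17001.5 to 19955 after GO–Rg3 and 27706 to 33850.1 after GO–Rg3–DOX. These sums hide markers that moved apart. After GO the means of AFP (12287 to 5836 CPM), ALB, TTR, TF and FGB were lower. Those of SERPINA1 (1588 to 2017 CPM), FGA (334 to 406) and HNF4A (363 to 563) were higher, and AHSG stayed at 141. After GO–Rg3–DOX the mean of HNF4A was lower, at 180 CPM, and those of the others were higher. PECAM1 (endothelial) and KRT7 (cholangiocyte) were at 0 counts throughout, while KRT19, the other cholangiocyte marker, had 24.9 to 28.8 CPM in untreated cells and 38.9 to 61.6 CPM after GO. CDH5, the 1 endothelial marker tested, had 0.24 to 0.35 CPM in untreated cells and 0.43 to 0.54 CPM after GO–Rg3–DOX. The 2 enterocyte markers tested, VIL1 and APOA4, summed to 254 to 262 CPM in untreated cells and 438 to 453 CPM after GO–Rg3–DOX. Most of this sum was VIL1, with means of 246.5 and 416.0 CPM, beside 10.7 and 31.4 CPM for APOA4. VWF, PTPRC, CD68, DCN and FABP2 did not pass the filter on low counts. The sum over 3 fibroblast markers was 3.63 to 4.96 CPM in untreated cells and 10.3 to 14.0 CPM after GO–Rg3–DOX, and that over 2 leukocyte markers 1.13 to 1.64 and 3.34 to 4.04 CPM. The part of these markers in the results was not tested. Some libraries stood apart from their groups. Mitochondrial genes took 24.1% of the counts in GO replicate 1 against 12.1% and 14.8% in replicates 2 and 3, and 19.4% in GO–Rg3–DOX replicate 1 against 13.9% and 12.8%. All these shares were above those of untreated cells (5.31%, 5.84% and 6.28%) and of GO–Rg3 (6.89%, 7.40% and 7.42%). TMM factors were 1.09 to 1.10 in untreated cells and 0.738 to 0.863 after GO–Rg3–DOX. The part of these differences between groups in the results was not tested. In GO–Rg3 replicate 2 the median centred log2 CPM of the 2130 genes with at least 60% GC was -0.58, against 0.14 and -0.13 in the other 2 samples of the group. Values without GO replicate 1, GO–Rg3–DOX replicate 1 or GO–Rg3 replicate 2 are given beside the comparisons that these libraries move.

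In untreated cells the level per kilobase of exon followed the order APOA2, APOA1, MTTP, APOC1, APOB, APOH, APOE, APOC3, APOM, APOA4. APOA2 had 504 CPM per kilobase and APOA1 had 469, both far above the 153 of MTTP. APOC1 (123) and APOB (107), and APOH (85.6) and APOE (77.4), overlapped between samples, and the other neighbours did not. APOC3 stood at 39.2, APOM at 12.6 and APOA4, mainly an intestinal apolipoprotein, at 7.24 CPM per kilobase. As a share of counts and not per length, APOB led with 1593 CPM. After GO–Rg3–DOX the order per kilobase was APOA1 (988), APOA2 (911), APOB (229), APOE (214), MTTP (211), APOC1 (182), APOH (146), APOC3 (124), APOA4 (21.4) and APOM (17.1), so that APOM was last. The sum over the 10 genes was 3638 to 4052 CPM in untreated cells, 3769.7 to 4264 after GO, 3426 to 4120.1 after GO–Rg3 and 6922 to 8316 after GO–Rg3–DOX.

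**Figure D1:**
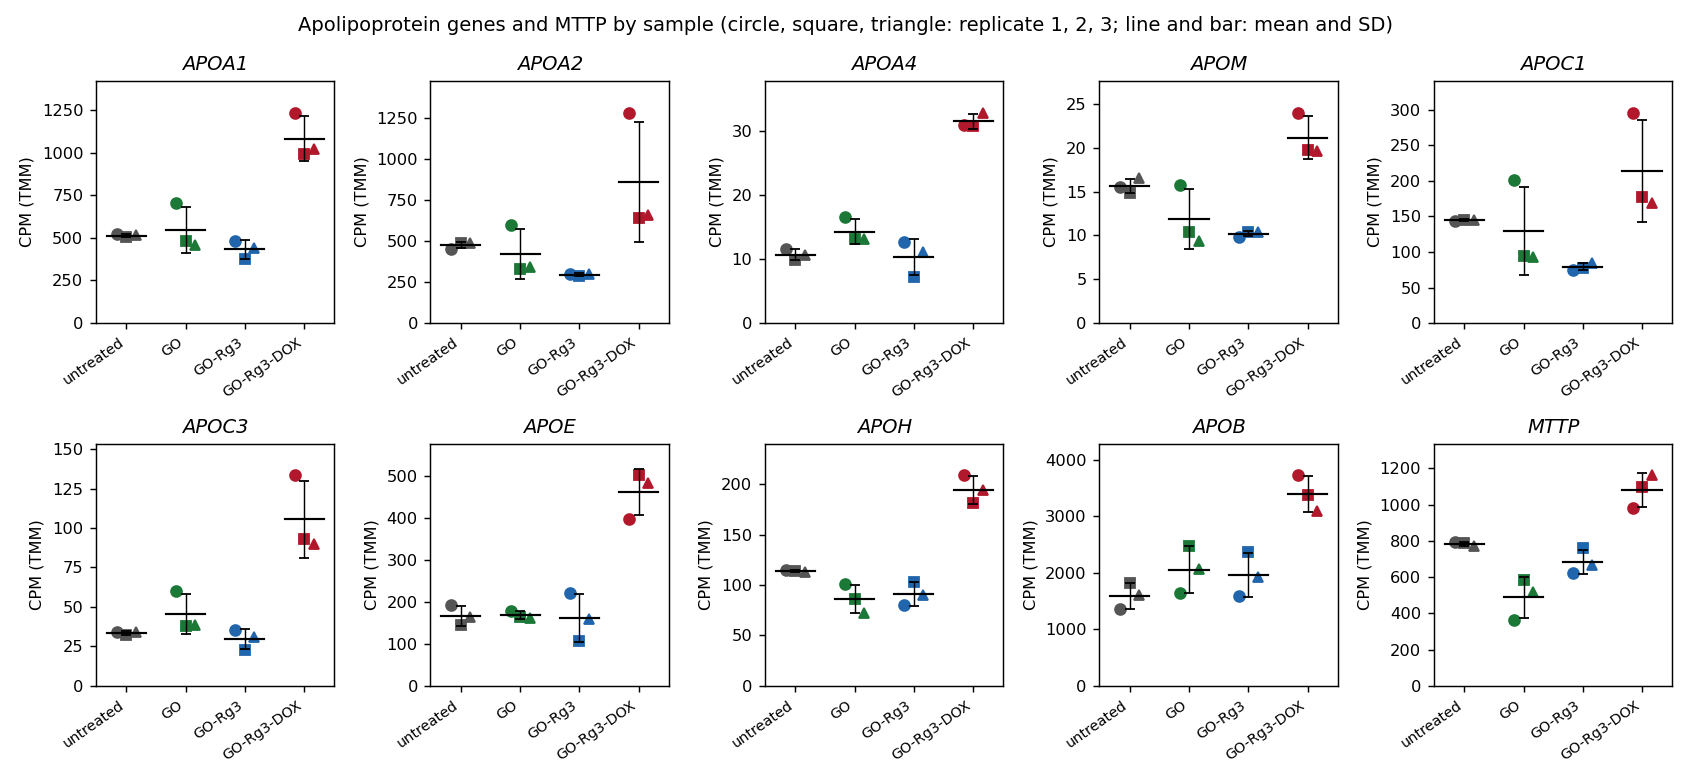
Level of each of the 10 genes (CPM, linear axis from 0) in every sample of the 4 groups, with the mean as a line and the SD as a bar (n = 3). The 3 GO–Rg3–DOX samples lie above all untreated samples in every panel, and for APOA2 and APOC1 replicate 1 of GO and of GO–Rg3–DOX sits well above replicates 2 and 3.

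After GO–Rg3–DOX all 10 genes were higher than in untreated cells, and 8 of them passed the test. Among all genes tested, 25.5% passed as higher and 30.5% as lower in this comparison. The median log2 fold change of the 10 genes was 0.97, against -0.06 over all genes. APOC3, APOA4, APOE, APOB and APOA1 also had a log2 fold change above 1. Of all genes, 12.6% passed as higher with a change of that size. APOC1 and APOM did not pass. No sample of the GO–Rg3–DOX group overlapped an untreated sample in any of the 10 genes.

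Of the genes for high-density lipoprotein, APOA1, the main protein of the particle, had 524, 503 and 514 CPM in the untreated samples and 1236, 992 and 1023 CPM after GO–Rg3–DOX. The treated samples all lay far above the untreated ones, and the gene rose with a log2 fold change of 1.08 (SE 0.15, adjusted p = 1.61e-05). APOA4 stood at 11.5, 9.81 and 10.7 CPM in untreated cells and at 30.8, 30.7 and 32.8 CPM after treatment. These 3 treated values were close together, and the log2 fold change was 1.56 (SE 0.17, adjusted p = 8.39e-07), a 2.95-fold rise. APOA2, the second protein of the particle, gave 453, 488 and 488 CPM against 1284, 642 and 657 CPM. Replicate 1 thus stood far above both other treated samples, and the log2 fold change of 0.85 (SE 0.24, adjusted p = 0.00612) carried the largest SE but one among the 10 genes. Without GO–Rg3–DOX replicate 1, APOA2 had a log2 fold change of 0.46 (adjusted p = 0.0547). Its call was also lost without untreated replicate 1, 2 or 3, and with library totals in place of TMM it was 0.40 (adjusted p = 0.0678). APOM, which carries sphingosine 1-phosphate, was at 15.5, 14.9 and 16.5 CPM in untreated cells and at 24.0, 19.8 and 19.7 CPM after treatment. The groups did not overlap, yet its log2 fold change of 0.44 did not pass (SE 0.16, adjusted p = 0.0229). BAG6, whose exons overlap APOM on the opposite strand, went from 249.9 to 619.8 CPM, and its part in the APOM values was not tested.

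Among the exchangeable apolipoproteins, APOC3 and APOE rose. APOC3 had 34.2, 31.9 and 33.8 CPM in the untreated samples and 133, 93.0 and 89.8 CPM after GO–Rg3–DOX. Every treated sample was far above the highest untreated level, and the log2 fold change was 1.66 (SE 0.20, adjusted p = 3.07e-06). Without GO–Rg3–DOX replicate 1 it was 1.47 (adjusted p = 2.94e-05), below that of APOA4 (1.59) and APOE (1.57). APOE went from 192, 144 and 164 CPM to 398, 501 and 482 CPM. Here replicate 1 was the lowest of the treated samples, unlike in APOA1, APOA2, APOC1 and APOC3, and the log2 fold change was 1.46 (SE 0.20, adjusted p = 9.79e-06). APOC1, the neighbour of APOE on chromosome 19 and an inhibitor of several lipoprotein enzymes, was at 144, 145 and 146 CPM in untreated cells and at 296, 177 and 169 CPM after treatment. The log2 fold change of APOC1 was 0.56 (SE 0.25, adjusted p = 0.0610), with a 95% interval of 0.02 to 1.10. It was 0.27 without GO–Rg3–DOX replicate 1 (adjusted p = 0.364), and APOC1 passed without GO replicate 1 (0.56, adjusted p = 0.00558), as did APOM (0.43, adjusted p = 0.00140).

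APOB and MTTP, the pair that starts very-low-density lipoprotein, differed in the size of their log2 fold changes, a difference that was not tested. APOB had 1357, 1814 and 1608 CPM in untreated cells and 3727, 3377 and 3094 CPM after GO–Rg3–DOX, a log2 fold change of 1.09 (SE 0.17, adjusted p = 3.61e-05). MTTP had 792, 787 and 769 CPM against 979, 1098 and 1162 CPM, a log2 fold change of 0.46 (SE 0.14, adjusted p = 0.00891). All treated samples of both genes were above the untreated ones, but the rise of MTTP was the smallest among the 8 that passed. The call of MTTP was lost in 7 of 12 fits that left out 1 sample, namely each untreated sample, replicate 3 of GO, replicate 3 of GO–Rg3 and replicates 2 and 3 of GO–Rg3–DOX, with log2 fold changes of 0.43 to 0.47 and adjusted p from 0.0114 to 0.0319. APOH stood at 115, 114 and 113 CPM in the untreated samples and at 209, 181 and 194 CPM after treatment. It rose with a log2 fold change of 0.77 (SE 0.12, adjusted p = 4.34e-05), the smallest SE of the 10 genes. With library totals in place of TMM, APOH was at 0.35 (adjusted p = 0.0134) and MTTP at 0.054 (adjusted p = 0.810), and neither passed.

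With library totals alone in place of TMM, the median of all genes in this comparison moved from -0.06 to -0.47, and 5 of the 10 genes passed as higher. Of all genes, 2152 passed as higher and 7293 as lower with these totals. Relative to the median of all genes, the 10 genes then lay 0.48 to 1.70 above it on the log2 scale, against 0.49 to 1.72 with TMM. A change of scaling moves all genes by about the same amount, so this distance cannot show whether the rise depends on the scaling. With both the GO and the GO–Rg3–DOX replicate 1 libraries left out, a setting added after seeing the data, all 10 passed as higher, with log2 fold changes from 0.27 for APOC1 to 1.59 for APOA4. In that setting 4248 of 16693 genes passed as higher and 5152 as lower.

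**Figure D2:**
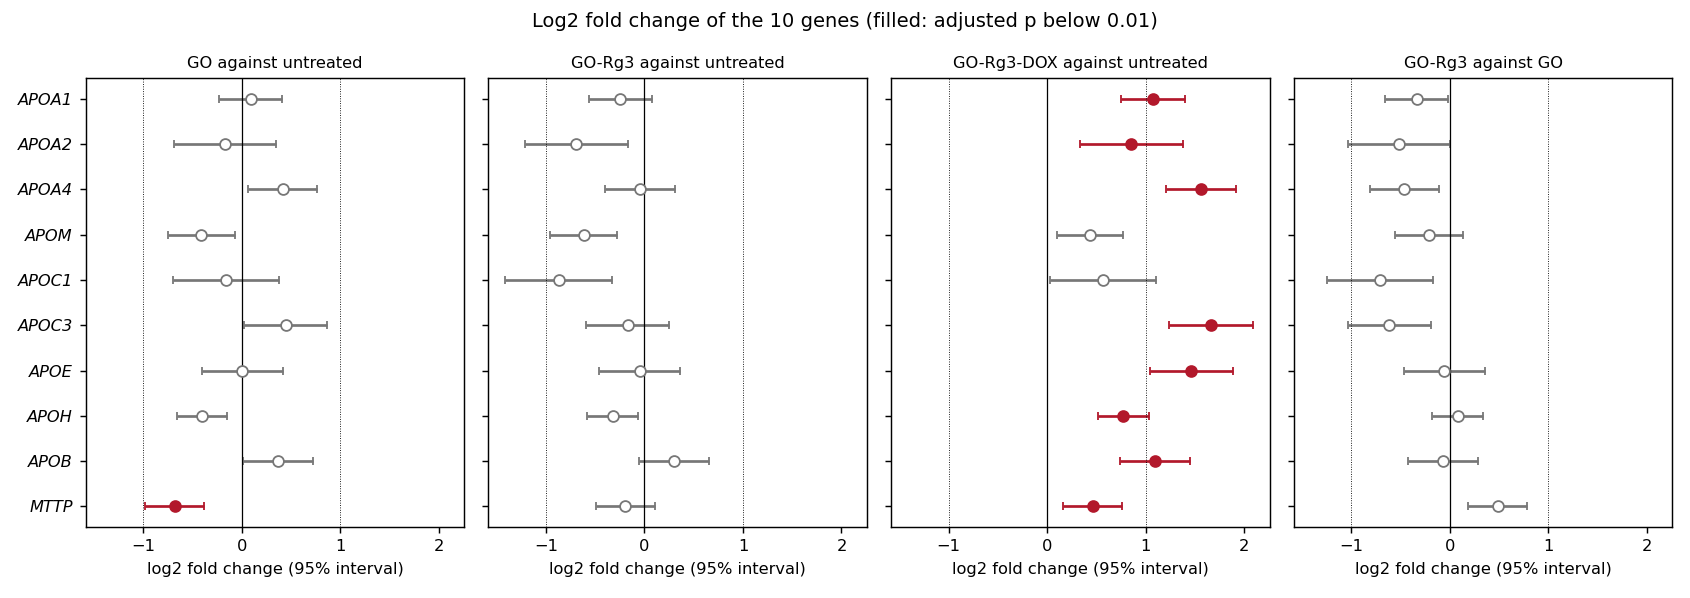
Log2 fold change of each gene with its 95% interval in the 4 comparisons, filled where the adjusted p was below 0.01. After GO–Rg3–DOX all 10 points lie above 0 and 8 are filled, and MTTP after GO, at -0.68, is the other filled point.

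After GO at 400 µg/mL, 1 of the 10 genes, MTTP, passed the test. MTTP had 792, 787 and 769 CPM in untreated cells and 365, 582 and 515 CPM after GO, so that all treated samples were lower. It fell by 0.68 on the log2 scale (SE 0.14, adjusted p = 0.00144), and it was the only member to pass, in either direction. Among all genes 15.4% passed as lower and 12.1% as higher, so 1 lower and 0 higher of 10 is no larger a share than in all genes. At an unadjusted p below 0.05 the number was 6 of the 10, and 8670 of all 17092 genes. The median log2 fold change of the 10 genes was -0.08, against 0.01 over all genes.

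The other members of the very-low-density and high-density groups gave smaller differences after GO. APOB had 1634, 2469 and 2071 CPM, which overlapped the untreated range, with a log2 fold change of 0.37 (SE 0.17, adjusted p = 0.0857). APOC3 was at 59.96, 37.7 and 38.7 CPM and APOA4 at 16.6, 13.1 and 13.1 CPM, both above all untreated samples. Their log2 fold changes were 0.44 (adjusted p = 0.0811) and 0.42 (adjusted p = 0.0548). APOH had 100.6, 86.0 and 72.3 CPM, all below the untreated samples, with a log2 fold change of -0.40 (SE 0.12, adjusted p = 0.0148). APOM was at 15.7, 10.4 and 9.39 CPM, with a log2 fold change of -0.41 (SE 0.16, adjusted p = 0.0493).

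In APOA1, APOA2, APOC1 and APOM the GO group was split by its replicate 1. APOA2 had 598 CPM there against 327 and 341 CPM in replicates 2 and 3, and APOC1 had 202 CPM against 94.2 and 93.4 CPM. One sample of each gene was thus above and the others below the untreated level. APOA1 gave 704 CPM against 480.2 and 455 CPM. Over the 3 samples the log2 fold changes were -0.17 for APOA2 (95% interval -0.69 to 0.34), -0.16 for APOC1 (-0.70 to 0.38) and 0.09 for APOA1 (-0.23 to 0.41). APOE, at 178, 164 and 160.5 CPM, had a log2 fold change of 0.01 (-0.41 to 0.42).

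Without GO replicate 1, MTTP, APOH and APOM passed as lower, at -0.51 (adjusted p = 0.00153), -0.52 (adjusted p = 0.00204) and -0.66 (adjusted p = 0.00053), while APOC1 was at -0.63 (adjusted p = 0.0130), APOA2 at -0.51 (adjusted p = 0.0768), APOA1 at -0.13 (adjusted p = 0.381) and APOC3 at 0.20 (adjusted p = 0.396), none of which passed. In that fit 2680 of 17010 genes passed as lower and 1808 as higher. APOH also passed without GO–Rg3 replicate 1 or 2, and APOA4 passed as higher without GO–Rg3 replicate 2 (0.41, adjusted p = 0.00893). With both replicate 1 libraries left out, 5 members passed as lower, APOA2, APOC1, APOH, APOM and MTTP, with log2 fold changes of -0.51, -0.62, -0.52, -0.66 and -0.51. In that setting 3016 of 16693 genes passed as lower and 2063 as higher.

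After GO–Rg3 at 400 µg/mL none of the 10 genes passed against untreated cells, which are the same 3 samples as in the comparisons above, where 0.0585% of all genes passed as higher and 0.105% as lower. At an unadjusted p below 0.05 there were 4 of the 10, all lower, and 2291 of all 17092 genes. With DESeq2 0 of the 10 passed as well. The median log2 fold change was -0.22, against -0.00 over all genes, and 9 of the 10 values were negative. APOC1 had 75.0, 77.9 and 85.1 CPM against 144, 145 and 146 CPM in untreated cells, so that the groups were far apart, with a log2 fold change of -0.87 (SE 0.25, adjusted p = 0.109). APOA2 had 298, 286 and 300.2 CPM against 453, 488 and 488 CPM, at -0.69 (SE 0.24, adjusted p = 0.195). APOM had 9.87, 10.4 and 10.3 CPM against 15.5, 14.9 and 16.5 CPM, at -0.62 (SE 0.16, adjusted p = 0.0689). These 3 genes were steady within both groups, while their SE comes from the fit to all 12 samples, in which replicate 1 of GO and of GO–Rg3–DOX departs from its group.

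Over 26 alternatives, APOC1 passed in 4, APOA2 in 3 and APOM in 3 at an adjusted p below 0.01. Without GO replicate 1, APOC1 (adjusted p = 0.00567) and APOM (adjusted p = 0.00309) passed as lower at the same log2 fold changes of -0.87 and -0.62, while APOA2 did not (adjusted p = 0.0572). The number of all genes lower was 319 in that fit, against 18. With only the 6 samples compared, APOC1 (-0.80, adjusted p = 0.00518) and APOA2 (-0.62, adjusted p = 0.00679) passed and APOM (-0.55, adjusted p = 0.0142) did not. With both replicate 1 libraries left out all 3 passed, as did 498 of 16693 genes as lower. APOB was the 1 member with a positive value, 0.30 (95% interval -0.05 to 0.65), at 1586, 2376 and 1918 CPM. APOE ranged from 220.0 CPM in replicate 1 to 105 CPM in replicate 2, with 158 CPM in replicate 3, a log2 fold change of -0.05 (-0.46 to 0.36). APOC3 and APOA4 were likewise lowest in replicate 2, at 22.5 and 7.20 CPM. Without that library the log2 fold changes were 0.18 for APOE, 0.15 for APOA4, -0.011 for APOC3 and 0.14 for APOB, and none passed. APOA1 had 484, 374 and 442 CPM, all below the untreated samples, at -0.25 (-0.57 to 0.07). MTTP, at 625, 758 and 669 CPM, had -0.20 (-0.49 to 0.10), and APOH, at 80.3, 103.2 and 89.99 CPM, had -0.32 (-0.58 to -0.07).

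GO and GO–Rg3 were given at the same dose and time, so they can be compared directly. The paper reports that Rg3 was attached in acid, and that the flakes became larger, thicker and less negatively charged. Rg3 and these changes of the material cannot be told apart here. None of the 10 genes passed in this comparison, where 7.33% of all genes passed as higher and 6.25% as lower after GO–Rg3. At an unadjusted p below 0.05 there were 5, and 6796 of all 17092 genes. With DESeq2 1 of the 10 passed, MTTP at 0.49 (adjusted p = 0.00632), where 1913 of all genes passed as higher and 1343 as lower. MTTP was higher after GO–Rg3 than after GO in all samples, with a log2 fold change of 0.49 (SE 0.14, adjusted p = 0.0194, 95% interval 0.19 to 0.79). APOC1 was at -0.71 (SE 0.25, adjusted p = 0.0503), APOC3 at -0.62 (SE 0.20, adjusted p = 0.0312), APOA2 at -0.52 (SE 0.24, adjusted p = 0.127), APOA4 at -0.46 (SE 0.17, adjusted p = 0.0503) and APOA1 at -0.34 (SE 0.15, adjusted p = 0.110). APOB (-0.07), APOE (-0.06), APOH (0.08) and APOM (-0.21) had intervals that reached both sides of 0, from -0.55 for APOM to 0.36 for APOE at the ends. That of APOA2, -1.04 to 0.0017, also reached just past 0. Without GO replicate 1 the values were -0.24 for APOC1, -0.18 for APOA2, -0.37 for APOC3, -0.11 for APOA1, -0.21 for APOB, 0.20 for APOH, 0.32 for MTTP and 0.039 for APOM, and none passed. Without GO–Rg3 replicate 2 they were -0.26 for APOA4, 0.17 for APOE, -0.23 for APOB and -0.019 for APOH. MTTP passed without GO replicate 2 (0.63, adjusted p = 0.00562).

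The genes differ in the GC content of their exons, from 69.0% for APOE, 63.6% for APOA1, 61.0% for APOA4 and 60.4% for APOC3, through 55.4% for APOC1, 54.2% for APOA2 and 53.0% for APOM, to 43.5% for APOB, 42.9% for APOH and 41.9% for MTTP. GC content moved with the treatments over all genes. After GO–Rg3–DOX the median log2 fold change was 0.69 over the 2130 genes of at least 60% GC and -0.49 over the 4362 genes of at most 42% GC. After GO these medians were 0.39 and -0.34, and after GO–Rg3 0.13 and -0.05. With an offset for GC content in each sample, the log2 fold changes after GO–Rg3–DOX were 0.67 for APOE, 0.52 for APOA1, 1.12 for APOA4 and 1.24 for APOC3, below those without it. Those of APOB (1.42), APOH (1.13) and MTTP (0.86) were above. The members called were the same 8, with APOC1 at 0.37 (adjusted p = 0.149) and APOM at 0.35 (adjusted p = 0.0238). After GO the offset turned APOE to -0.52 (adjusted p = 0.000255) and APOA1 to -0.33 (adjusted p = 0.0415), and APOB was at 0.51 (adjusted p = 0.00706), APOM at -0.56 (adjusted p = 0.00287) and MTTP at -0.49 (adjusted p = 0.00135). APOE, APOM and MTTP then passed as lower and APOB as higher. With the offset, 2302 of all genes passed as higher and 2870 as lower after GO, and 5249 and 4776 after GO–Rg3–DOX.

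**Figure D3:**
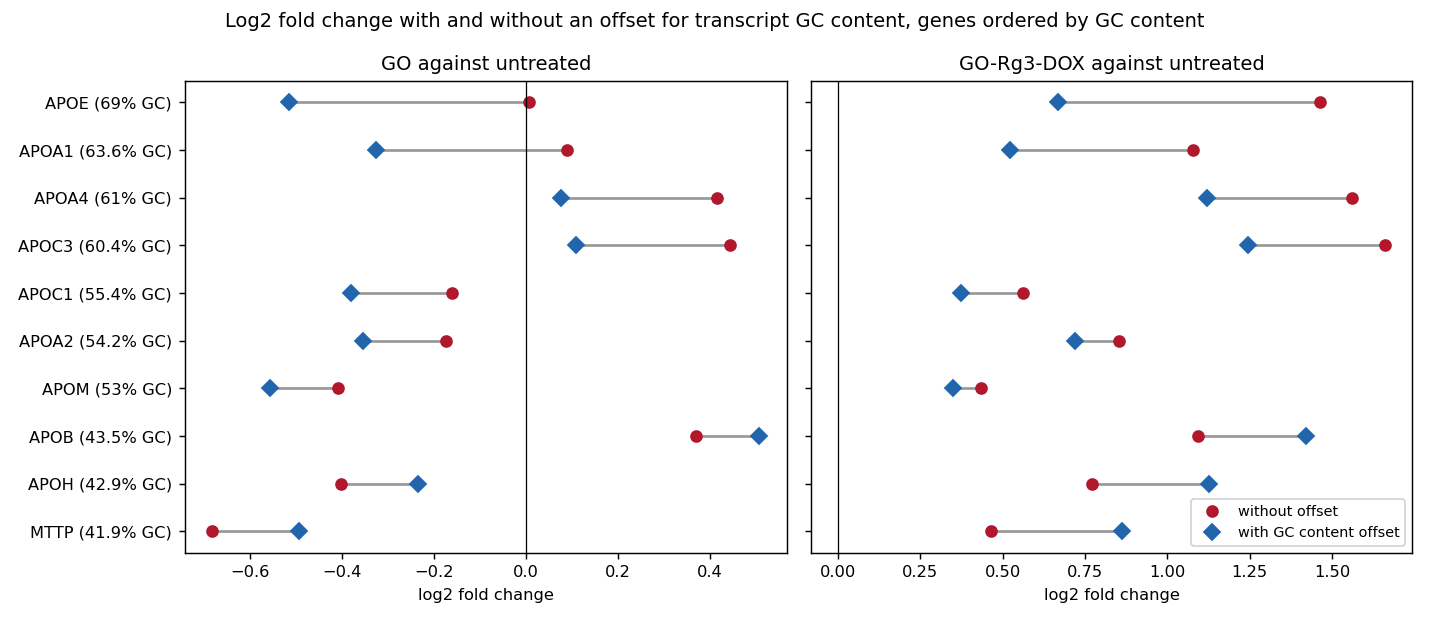
Log2 fold change of the 10 genes, ordered by the GC content of their exons, without and with an offset for GC content, after GO and after GO–Rg3–DOX. The offset lowers the GC-rich genes and raises APOB, APOH and MTTP, and in the right panel all 10 genes stay above 0 in both fits.

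Ratios within a library do not depend on its scaling, but they are not corrected for GC content. MTTP per APOB was 0.583, 0.434 and 0.478 in the untreated samples, 0.223, 0.236 and 0.249 after GO, 0.394, 0.319 and 0.349 after GO–Rg3 and 0.263, 0.325 and 0.375 after GO–Rg3–DOX. All treated samples were below the lowest untreated sample, and the 3 GO samples were below all others. APOC3 per APOA1, a pair of the chromosome 11 cluster, was 0.0634 to 0.0658 in untreated cells, 0.0785 to 0.0852 after GO, 0.0603 to 0.0734 after GO–Rg3 and 0.0878 to 0.108 after GO–Rg3–DOX. APOC1 per APOE, the pair on chromosome 19, was 0.748, 1.01 and 0.890 in untreated cells, 1.13, 0.576 and 0.582 after GO, 0.341, 0.739 and 0.538 after GO–Rg3 and 0.744, 0.353 and 0.351 after GO–Rg3–DOX, so that all samples given GO–Rg3 or GO–Rg3–DOX were below the lowest untreated sample, some only just. These ratios are descriptions, and no test was made of them.

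The other genes of lipoprotein metabolism did not all go the way of the 10 genes after GO–Rg3–DOX, where 25.5% of all genes passed as higher and 30.5% as lower. Of 8 other apolipoprotein genes tested, 3 were higher and 3 lower, with a median log2 fold change of 0.46. APOD, a small lipid carrier of the lipocalin family, rose from 1.81 ± 0.0905 to 6.14 ± 2.33 CPM (SD, n = 3), a log2 fold change of 1.75 (SE 0.22, adjusted p = 4.91e-06). APOC2, the cofactor of lipoprotein lipase, fell from 2.05 ± 0.296 to 0.662 ± 0.0915 CPM, by 1.61 on the log2 scale (SE 0.22, adjusted p = 1.12e-05). CLU, or apolipoprotein J, which is outside the rule for named genes and was chosen after its values were seen, rose with a log2 fold change of 1.29.

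Of 17 lipoprotein receptors and their regulators, 11 were higher and 3 lower after GO–Rg3–DOX (median 1.12). OLR1, a receptor for oxidized low-density lipoprotein, had the largest rise, from 3.71 ± 0.513 to 17.2 ± 3.98 CPM (log2 fold change 2.20, SE 0.17, adjusted p = 3.82e-08). VLDLR, the very-low-density lipoprotein receptor, had the largest fall, from 6.26 ± 0.431 to 2.45 ± 0.716 CPM (-1.35, SE 0.18, adjusted p = 8.86e-06). Of 20 genes for particle assembly and secretion, 8 were higher and 6 lower (median 0.20). DGAT1, which makes triglyceride, rose from 119.9 ± 2.90 to 329.6 ± 27.2 CPM (1.46, SE 0.16, adjusted p = 1.30e-06), and SEC24B, a coat protein of the vesicles that leave the endoplasmic reticulum, fell from 31.2 ± 0.506 to 5.06 ± 0.384 CPM (-2.62, SE 0.13, adjusted p = 3.54e-10). P4HB, the partner subunit of the MTTP protein, chosen after its values were seen, rose with a log2 fold change of 0.96. Of 14 genes for lipid efflux and remodelling in plasma, 6 were higher and 2 lower (median 0.42). PLTP, the phospholipid transfer protein, rose from 171.7 ± 6.86 to 544.7 ± 88.4 CPM (1.67, SE 0.16, adjusted p = 3.14e-07) and LIPG, endothelial lipase, fell from 39.6 ± 1.17 to 15.8 ± 0.976 CPM (-1.32, SE 0.10, adjusted p = 2.92e-08).

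Among the transcription regulators of apolipoprotein genes, more fell than rose. Of 31 tested, 3 were higher and 15 lower after GO–Rg3–DOX, with a median of -0.64. FOXA1 had the largest fall, from 62.3 ± 1.14 to 5.24 ± 0.0666 CPM (-3.57, SE 0.10, adjusted p = 2.63e-12). SREBF2, the regulator of sterol synthesis genes, had the largest rise among those with a mean of at least 1 CPM, from 247.6 ± 11.8 to 568 ± 54.0 CPM (1.199, SE 0.12, adjusted p = 4.58e-07). HNF4A (-1.02), FOXA2 (-1.32) and FOXA3 (-2.67), chosen after their values were seen, also fell. These factors are known to act on the promoters of several of the 10 genes, and whether their change bears on them was not tested. Protein levels were not measured in these data.

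After GO, 12.1% of all genes passed as higher and 15.4% as lower. Of the 31 regulators 7 were higher and 3 lower. Among those with a mean of at least 1 CPM, RORA had the largest rise (2.04, SE 0.17, adjusted p = 6.76e-07). PPARG had the largest fall, from 147.9 ± 2.61 to 58.5 ± 5.58 CPM (-1.34, SE 0.10, adjusted p = 2.27e-07). HNF4A, again chosen after its values were seen, rose from 363 to 563 CPM (0.63, adjusted p = 0.000557). Of the 17 receptors and their regulators 7 were higher and 1 lower, SORL1 with the largest rise (1.34) and OLR1 the gene that fell (-0.85). APOL6 (1.60) and APOL2 (1.27), the latter chosen after its values were seen, were the other apolipoprotein genes that rose. In the assembly group of 20 genes 2 were higher, TM6SF2 (0.99) with the larger change, and 3 lower, with ACAT2 at -0.84. These shares, 10% and 15%, were near those of all genes. In the efflux group of 14 genes 4 were higher and 4 lower, with ANGPTL4 at 1.28.

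After GO–Rg3, PPARG was the 1 gene of these 5 lists to pass, at -0.67 (SE 0.10, adjusted p = 0.00626). Against GO, GO–Rg3 gave higher levels of OLR1 (1.07), FOXA1 (0.69) and ACAT2 (0.51), and lower levels of RORA (-2.22, SE 0.17, adjusted p = 6.17e-07), ANGPTL4 (-1.55), APOL6 (-1.52), SORL1 (-1.31) and TM6SF2 (-0.89). Each was the largest rise or fall of its list among the genes reported here.

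**Figure D4:**
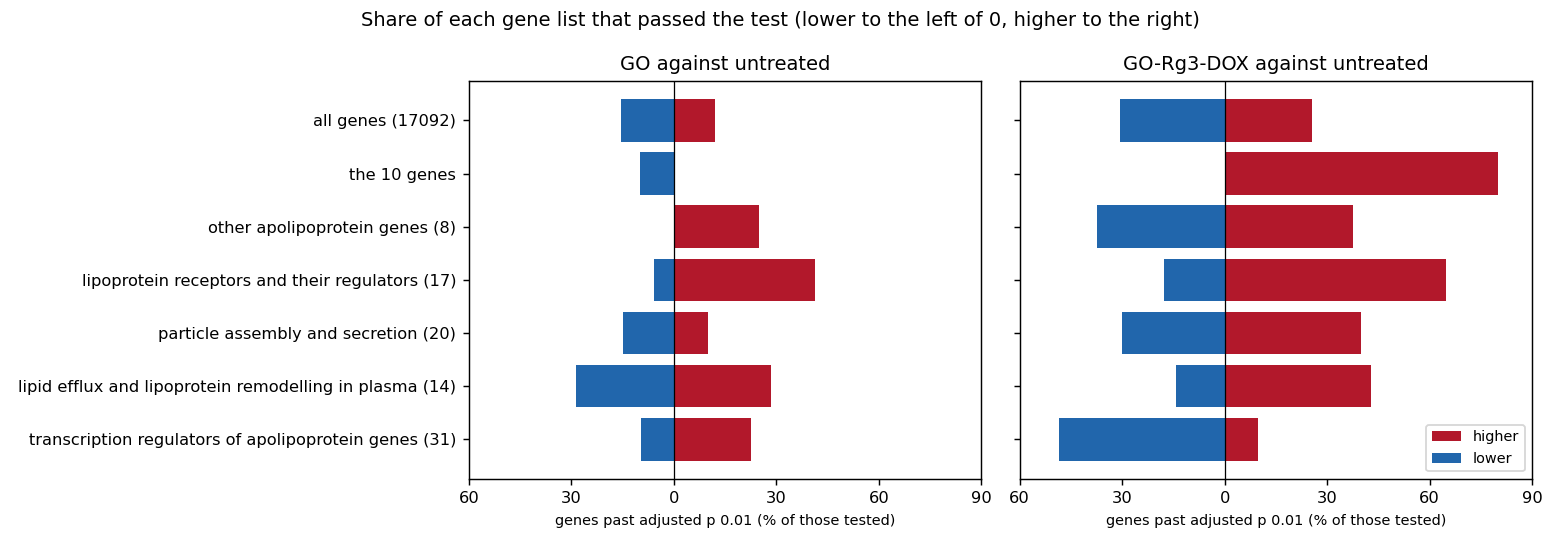
Share of the genes of each list that passed the test, lower to the left and higher to the right of 0, after GO and after GO–Rg3–DOX, with the number of genes tested in brackets. After GO–Rg3–DOX, 80% of the 10 genes passed as higher, against 25.5% of all genes, and 48.4% of the transcription regulators passed as lower, against 30.5% of all genes.

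The group means spanned the widest range for APOC3 and APOA4 (1.83 and 1.64 on the log2 scale). Among 8951 genes of at least 10 CPM, those whose centred log2 CPM over the 12 samples lay nearest to APOC3 were DCXR, TM4SF5 and GAMT, with root mean square differences of 0.131, 0.142 and 0.150. Nearest to APOA4 were FCGRT, TFR2 and PLD3, at 0.0901, 0.0958 and 0.114. DCXR, for one, had mean levels of 33.2, 42.4, 31.6 and 88.3 CPM in untreated, GO, GO–Rg3 and GO–Rg3–DOX cells, beside 33.3, 45.4, 29.6 and 105 CPM for APOC3. The GC content of these 6 genes was 59.6% to 66.3%, near that of APOC3 and APOA4, and the 12 samples they share also differ in GC content as given above.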

How the data were processed

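RNA was measured in 12 samples of Huh7 cells, 3 in each group, which were assigned by their labels. Libraries came from a stranded mRNA kit. The authors mapped reads to GRCh37 with the NGI-RNAseq pipeline and counted them per gene with featureCounts, and the deposited values are raw counts without normalization. From these, genes that reached 10 counts in 3 or more samples were kept, as in the study, which used DESeq2. Counts were scaled by TMM and fitted with edgeR 4.0.16 in R 4.3.3, by a quasi-likelihood test on all 12 samples without a replicate block, with Benjamini-Hochberg adjustment over 17092 genes in each of 4 comparisons. A gene passed at an adjusted p below 0.01. Intervals (95%) and SE are from this fit. The fit was tested on simulated data. GC content and exon lengths came from GENCODE v44lift37 on GRCh37, for 16622 genes (97.3%). Alternatives were RLE scaling, library totals alone, other filters, DESeq2 1.42.0, offsets for GC content and length (loess, span 0.5), a replicate block, the 6 samples compared, each sample left out, and adjusted p below 0.05 or 0.0001. Named are the 10 genes, the largest rise and fall of each list at a mean of at least 1 CPM, and the genes nearest in pattern to the 2 members of widest range. Members and lists were chosen with earlier results of these data known. Depth was 27802871 to 38877420 counts per sample, which bears on counting error only. Python 3.11.15 and pandas 2.3.3 were used for summaries. Some genes of the lists are not reported here.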

Additional observations from a re-analysis of the deposited data

How the results depend on the processing

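MTTP after GO passed, as did APOA1, APOA4, APOB, APOC3 and APOE in the GO–Rg3–DOX cells, under every alternative fit at an adjusted p below 0.01. After GO–Rg3–DOX, APOA2, MTTP and APOH lost their calls as given above. Counts below are higher/lower genes passing, for the 10 genes and then all genes, and the cause of each move was not tested. Counts that stayed near those of the main fit are mostly left out. The reference counts were 2074 and 2639 of all genes after GO, 10 and 18 with GO–Rg3, 4350 and 5214 after GO–Rg3–DOX, and 1253 and 1068 for GO–Rg3 against GO. After GO–Rg3–DOX, DESeq2 gave 9 of the 10 and 4901 of all genes higher, with APOM passing (0.51, adjusted p = 0.00504). No filter on low counts gave 9 of the 10 and 4766 of 35604 genes higher. Only the 6 samples compared gave all 10 and 5145 of 16238 genes higher.

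DESeq2 gave 69 higher and 229 lower of all genes after GO–Rg3, and 1 of the 10 and 1913 of all genes higher against GO. The GC offset gave 1 higher and 3 lower of the 10 after GO, with 2302 and 2870 of all genes. After GO–Rg3 it gave 46 and 99 of all genes. It turned APOA1 (-0.33) and APOE (-0.52) after GO, and APOA1 (0.012), APOH (-0.032) and APOE (0.29) for GO–Rg3 against GO. With a replicate block too, the counts after GO were 1 and 3 of the 10, with 2539 and 3064 of all genes. Those after GO–Rg3 were 77 and 178 of all genes. Against GO, 1 of the 10 and 1964 of all genes were higher. The turned values were -0.33, -0.52, 0.021, -0.018 and 0.30. The length offset gave 2 of the 10 and 2879 of all genes lower after GO. It turned APOA4 (0.0498) and APOE (0.045) after GO–Rg3 and APOE (0.027) against GO. With the block, added after seeing the data, it gave 3 of the 10 and 3391 of all genes lower after GO. It gave 30 and 82 of all genes after GO–Rg3, and 1 and 1 of the 10 and 2205 and 1624 of all genes against GO. APOA4 (0.038) and APOE (0.026) turned after GO–Rg3. Library totals alone gave 3 lower of the 10 after GO, with 1223 higher and 2780 lower of all genes. They gave 5 of all genes higher after GO–Rg3, and 5 of the 10 and 2152 of all genes higher after GO–Rg3–DOX. Against GO, 489 of all genes were lower. The totals turned APOA1 (-0.056) and APOE (-0.12) after GO and APOE (0.10) and APOB (0.061) against GO. They moved the median of all genes to -0.11 after GO and 0.12 against GO.

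No filter on low counts gave 1 and 2 of the 10 after GO, with 2441 and 3145 of 35604 genes. After GO–Rg3 it gave 3 lower of the 10 and 66 and 420 of all genes. Against GO it gave 1 and 3 of the 10 and 1790 and 1490 of all genes. APOE was at -0.021 after GO. Only the 6 samples compared gave 2 lower of the 10 and 72 of all genes lower after GO–Rg3 and 158 and 315 of all genes against GO, with APOA4 (0.033) and APOE (0.035) turned after GO–Rg3. At adjusted p below 0.0001, 0 of the 10 were lower after GO, and of all genes 370 and 457 passed after GO, 0 and 1 with GO–Rg3, 2108 and 3296 after GO–Rg3–DOX and 65 and 131 against GO. Below 0.05, 3 of the 10 were lower after GO, with 3433 of all genes higher and 3844 lower. After GO–Rg3, 43 and 214 of all genes passed. Against GO, 1 and 1 of the 10 and 2457 and 2224 of all genes passed. Both replicate 1 libraries left out, added after seeing the data, gave 5 lower of the 10 after GO, with 2063 and 3016 of all genes. After GO–Rg3 this setting gave 3 lower of the 10 and 69 and 498 of all genes. It turned APOA1 (-0.13) and APOE (-0.038) after GO and APOM (0.037) against GO.

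Leaving out 1 sample gave 0 to 1 higher and 1 to 3 lower of the 10 after GO. Of all genes, 1266 to 2530 were then higher and 1801 to 2879 lower. After GO–Rg3 it gave 0 to 2 lower of the 10, and 0 to 42 higher and 1 to 319 lower of all genes. After GO–Rg3–DOX it gave 6 to 10 higher of the 10, and 3664 to 4688 higher and 4545 to 5557 lower of all genes. Against GO it gave 0 to 1 higher of the 10, and 501 to 1542 higher and 533 to 1334 lower of all genes. Log2 fold changes that turned ranged over -0.13 to 0.21 (APOA1), -0.63 to 0.033 (APOC1) and -0.088 to 0.12 (APOE) after GO, -0.21 to 0.15 (APOA4) and -0.34 to 0.18 (APOE) after GO–Rg3, and -0.23 to 0.079 (APOB), -0.35 to 0.17 (APOE), -0.035 to 0.20 (APOH) and -0.35 to 0.039 (APOM) against GO.

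Samples of equal number share only that number. The replicate block gave 2 lower of the 10 after GO, with 2601 and 3190 of all genes. It gave 18 and 66 of all genes after GO–Rg3. Against GO it gave 1 and 1 of the 10, with 1810 and 1561 of all genes. Deviations of equally numbered samples correlated with a mean r of 0.0914 (-0.0239 to 0.253, 18 pairs), against -0.0451 for others, and 10 of 12 samples correlated best with their own number, a hint from the data and not the design.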

Other observations

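Genes beside the members did not share one direction after GO–Rg3–DOX. Within 100 kilobases of the chromosome 11 cluster, BUD13, a splicing factor, fell by 2.01 on the log2 scale (adjusted p = 7.67e-10), while ZNF259 (-0.16, adjusted p = 0.138), SIK3 (-0.13, adjusted p = 0.274) and APOA5 (0.77, adjusted p = 0.0865) did not pass. Beside APOE and APOC1 on chromosome 19, BCAM (1.82, adjusted p = 1.23e-06), CLPTM1 (1.35, adjusted p = 9.48e-07), PVRL2 (0.98, adjusted p = 4.62e-05) and TOMM40 (0.77, adjusted p = 0.000373) rose and APOC2 fell by 1.61, while RELB (0.25, adjusted p = 0.285) and APOC1P1 (0.98, adjusted p = 0.0117), the pseudogene copy of APOC1, did not pass. These neighbours were listed after the data were seen, and no test was made of the regions as such.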
